A study of Mus musculus with 2 samples.

Results

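The 10 genes described here encode the proteoglycans, matrilins and small secreted proteins that cartilage cells place around themselves: *Acan*, *Hapln1*, *Matn1*, *Matn3*, *Comp*, *Ucma*, *Cnmd*, *Scrg1*, *Clec3a* and *Prg4*. They were chosen by symbol, all 10 were found among the 19430 genes of the count tables, and they were followed over the spots of fracture calluses by section, genotype and tissue position. The data were Visium spatial transcriptomes of fixed, paraffin-embedded tissue, in which pairs of probes bound to mouse transcripts are caught on barcoded spots in a grid and counted as unique molecular identifiers (UMIs). The 2 sections each held the tibial calluses of a control and a mutant female littermate aged 8 weeks, embedded in the same block, taken 10 days after a distal tibia fracture held by an intramedullary pin, fixed in formalin and decalcified in 14% EDTA. The control mouse was Nf1 +/flox without Cre, so it carried a floxed allele as well. The other mouse, called Nf1Postn, was Postn-cre;Nf1 flox/-, in which Cre driven by the periostin promoter deletes *Nf1*, the gene of the RAS inhibitor neurofibromin, in the periosteum and its descendants, and every other cell keeps the floxed allele beside the null allele.

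Cartilage matrix is a gel of aggrecan held in a mesh of type II collagen. Aggrecan carries chondroitin sulfate chains that bind water, link protein fixes it to hyaluronan, and matrilins and COMP bridge it to the collagen fibrils. In fracture repair a soft callus of such cartilage forms near the break, its cells enlarge and switch on *Col10a1*, and bone replaces it.

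Section 1 held 1700 control and 1341 Nf1Postn spots, and section 2 held 1778 and 1556. Each section was 1 library, within which control spots had more UMIs, with medians of 7053 and 5718.5 per spot against 2030 and 3239.75 for Nf1Postn spots. *Nf1* itself stood at 87.8 counts per 1000000 UMIs (CPM) in the control and 65.6 in the Nf1Postn callus of section 1, and at 79.0 and 49.6 in section 2. The labels call the sections biological replicates 1 and 2, while the methods describe serial sections and calluses of both genotypes in a shared block and give no number of mice. Each genotype was therefore treated as 1 mouse, and there was no test between genotypes. If the sections came from different mice, each genotype would be 2 mice. Levels are given as CPM pooled over the spots of a group with exact Poisson 95% intervals, and ratios with exact conditional 95% intervals, all of which cover counting error only. A spot holds several cells, so fewer cells of a type and less RNA per cell cannot be told apart. Levels are not compared between genes, since the number of probe pairs per gene was not used here. The tissue around the Nf1Postn callus was muscle-rich: spots in which 8 muscle genes took over 5% of UMIs made up 54.4% and 72.5% of the Nf1Postn spots but 9.88% and 15.5% of the control spots.

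The 250 bases upstream of the transcription start are shown for 4 of the 6 genes that have a window, *Acan*, *Ucma*, *Cnmd* and *Matn1*. *Acan* is the best known marker of the group. *Ucma* and *Cnmd* were higher in control spots high in *Col2a1* alone than in those high in *Col10a1* as well. *Matn1* was lower in the former, and these classes are described below. The sequences are from RefSeq on GRCm38.p6, read 5′ to 3′ on the strand of the gene, and have no capitals because no motif searched was found in them.
Acan (chr7:79052976-79053225, plus strand): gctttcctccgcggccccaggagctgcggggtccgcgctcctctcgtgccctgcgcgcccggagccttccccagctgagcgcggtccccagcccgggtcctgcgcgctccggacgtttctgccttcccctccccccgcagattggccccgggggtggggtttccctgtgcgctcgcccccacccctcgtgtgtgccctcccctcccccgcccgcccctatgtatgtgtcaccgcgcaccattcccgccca
Ucma (chr2:4975872-4976121, plus strand): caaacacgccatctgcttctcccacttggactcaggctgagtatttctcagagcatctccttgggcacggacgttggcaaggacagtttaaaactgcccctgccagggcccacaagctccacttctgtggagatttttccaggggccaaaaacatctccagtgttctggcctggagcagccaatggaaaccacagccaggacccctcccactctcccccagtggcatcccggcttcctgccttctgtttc
Cnmd (chr14:79662184-79662433, minus strand): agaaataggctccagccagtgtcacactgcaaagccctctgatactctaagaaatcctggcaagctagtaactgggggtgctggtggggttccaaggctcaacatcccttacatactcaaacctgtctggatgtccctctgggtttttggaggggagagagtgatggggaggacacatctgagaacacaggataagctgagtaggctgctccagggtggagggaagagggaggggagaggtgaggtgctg
Matn1 (chr4:130944135-130944384, plus strand): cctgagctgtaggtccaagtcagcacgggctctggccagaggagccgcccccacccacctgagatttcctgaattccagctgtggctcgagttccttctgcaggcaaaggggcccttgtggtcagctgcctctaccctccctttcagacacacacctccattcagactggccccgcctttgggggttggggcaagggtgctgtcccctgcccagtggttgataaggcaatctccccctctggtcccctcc
A window of 300 bases (250 upstream and 50 downstream) was found for 6 of the 10 genes, these 4 with *Hapln1* and *Matn3*. None of the 6 held ACAAAG or AACAAT, the letters that SOX factors are known to bind, or TATAAA, on either strand. Of all 32851 windows, 27.0% held at least 1 of the SOX-type motifs and 13.6% held TATAAA. The 6 windows are too few to set their lack of a match apart from these shares. The GC content was 74.0% for *Acan*, 62.7% for *Matn3*, 61.3% for *Matn1*, 56.0% for both *Ucma* and *Cnmd* and 54.3% for *Hapln1*, against a median of 52.7% over all windows.

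The control and Nf1Postn calluses were compared first, to see how cartilage matrix transcripts differed between the genotypes. These differ in Cre and in the null allele of every cell as well as in periosteal loss of *Nf1*. All of these genes but *Prg4* were at least 2-fold lower in the Nf1Postn callus in both sections, that is 9 of 10, where 1.58% of the 11851 genes with enough UMIs met the same rule. None of the 10 was at least 2-fold higher in both, where 4.21% of genes were. The median of their pooled log2 ratios was -2.59, and that of all genes was -0.094. For all 9 the difference was larger in section 1 than in section 2.

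*Acan* (chr7:78703231-78764848, mm39), which encodes the aggrecan core protein, was measured at 1506 CPM (1485 to 1527) in the control and 210 (195 to 226) in the Nf1Postn callus of section 1. In section 2 it was measured at 993 (975 to 1011) and 236 (224 to 249), so that the ratio was 7.18-fold and then 4.20-fold. It was detected widely, in 82.8% and 82.2% of control spots and in 32.4% and 42.8% of Nf1Postn spots. After each spot was thinned to 1000 UMIs, these shares were 44.8% and 43.5% against 15.3% and 18.7%. *Hapln1* (chr13:89687915-89759772), the link protein that locks aggrecan onto hyaluronan, stood at 381 and 32.3 CPM in section 1 and at 234 and 49.6 in section 2, a difference of 11.8-fold and 4.71-fold. The 2 partners of the aggregate were therefore both lower in the Nf1Postn callus, by ratios whose intervals did not overlap in section 1 (log2 -2.95 to -2.74 for *Acan*, -3.84 to -3.29 for *Hapln1*) but did in section 2.

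The matrilins are adaptor proteins that form filaments between collagen fibrils and aggrecan. *Matn3* (chr12:8997929-9022029) was at 631 CPM in the control and 44.5 in the Nf1Postn callus of section 1, and at 416 and 76.4 in section 2, which is 14.2-fold and 5.45-fold lower. *Matn1* (chr4:130671696-130682787) was sparse, with 243 and 122 UMIs in the control calluses and 10 and 16 in the Nf1Postn calluses. Its levels were 17.9 (15.7 to 20.3) against 2.89 (1.39 to 5.31) CPM in section 1 and 10.1 (8.36 to 12) against 2.67 (1.53 to 4.34) in section 2. *Comp* (chr8:70826208-70834717), a pentameric thrombospondin that binds collagens and matrilins and is also made in tendon, was detected in 98.1% and 98.8% of control spots. It was at 6477 and 1513 CPM in section 1 and at 4473 and 1890 in section 2, which made its differences of 4.28-fold and 2.37-fold the smallest among the 9 genes.

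Of the small secreted proteins, *Ucma* (chr2:4980933-4990560), a vitamin K-dependent Gla protein known from the resting zone of growth plates, had the largest ratio of the group. It was at 70.7 CPM (66.3 to 75.3, 959 UMIs) in the control and 4.33 (2.42 to 7.15, 15 UMIs) in the Nf1Postn callus of section 1. In section 2 it was at 37.6 (34.2 to 41.2, 456 UMIs) and 3.68 (2.30 to 5.57, 22 UMIs). No Nf1Postn spot held more than 1 UMI of it, while control spots held up to 23. *Scrg1* (chr8:57908957-57930620), a small secreted protein linked to cartilage differentiation, was 10.1-fold and 7.45-fold lower, from 87.4 to 8.66 CPM and from 52.3 to 7.02. *Cnmd* (chr14:79875130-79899611) encodes chondromodulin, which keeps vessels out of cartilage. It was at 285 and 28.9 CPM in section 1 and at 170 and 52.0 in section 2, 9.87-fold and 3.26-fold lower. *Clec3a* (chr8:115144826-115152587), a C-type lectin of cartilage, was at 447 and 35.8 CPM in section 1 and at 290 and 69.7 in section 2. The intervals of the control and Nf1Postn levels did not overlap for any of these 4 genes in either section.

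*Prg4* (chr1:150325163-150341917) encodes lubricin, the lubricant of joint surfaces and tendon sheaths, and it did not follow the others. It was at 37.4 CPM (34.2 to 40.8) in the control and 8.09 (5.37 to 11.7) in the Nf1Postn callus of section 1. In section 2 it was at 2.06 (1.33 to 3.04) in the control and 12.9 (10.2 to 16.1) in the Nf1Postn callus, so the direction differed between sections. Its log2 ratios were -2.21 (-2.81 to -1.66) and 2.64 (1.97 to 3.35).

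**Figure D1:**
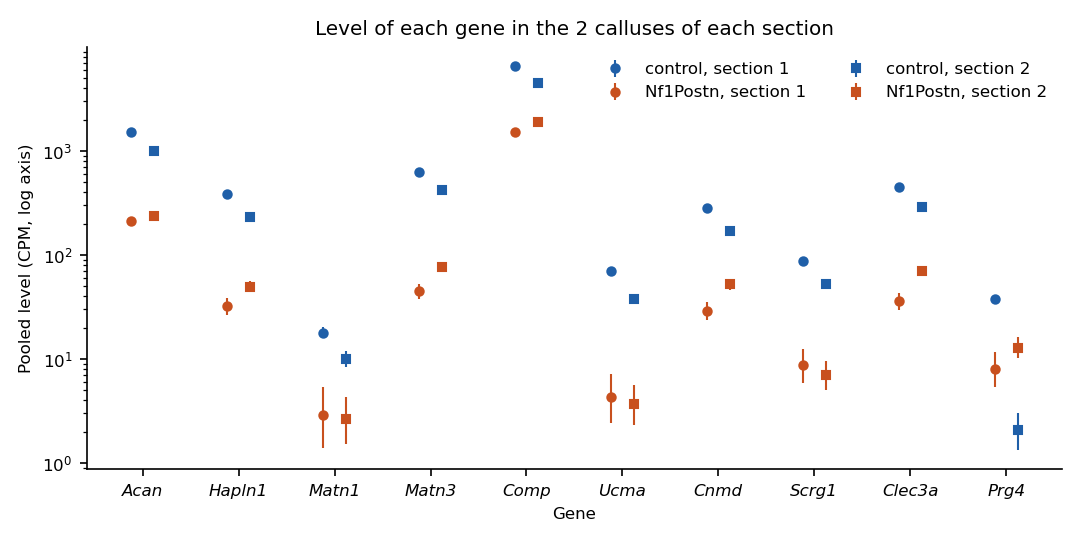
Pooled level of each gene (CPM, log axis) in the control (blue) and Nf1Postn (orange) callus of section 1 (circles) and section 2 (squares), with exact Poisson 95% intervals. For 9 genes both control points lie above both Nf1Postn points, and for *Prg4* the section 1 control is the highest point at 37.4 CPM and the section 2 control the lowest at 2.06.

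The control callus was itself not the same in both sections. The 9 genes other than *Prg4* were 1.45-fold (*Comp*) to 1.88-fold (*Ucma*) lower in section 2 than in section 1 of the control callus, as was *Col2a1*, the main collagen of cartilage, by 1.58-fold. *Col10a1*, the collagen of hypertrophic cartilage, was 2.39-fold lower. Of the genotype differences, that of *Comp* in section 2 came closest to this spread between sections. For *Prg4* the control sections differed by 18.1-fold, more than either genotype difference.

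Other cartilage genes and the pathway around aggrecan were read by the same rule, from lists that had been chosen with results of these data known. Of 15 other cartilage genes with enough UMIs, 10 were at least 2-fold lower in Nf1Postn in both sections. *Col2a1* was 13.0-fold and 3.73-fold lower, while *Col9a1*, a chain of the collagen on the surface of type II fibrils, missed the rule at 5.07-fold and 1.85-fold. Of 12 enzymes and transporters that make chondroitin sulfate, 3 met it, and these were *Chst11*, a sulfotransferase, *Papss2*, which makes the sulfate donor, and *Ugdh*, which makes the sugar donor (named after their values were seen). None of 8 genes of aggrecan breakdown met it: *Adamts1* had log2 ratios of 0.00 and -0.73, *Adamts4*, which encodes an aggrecanase, was at 44.8 and 46.8 CPM in section 1 and at 41.0 and 20.7 in section 2, and *Adamts5*, another aggrecanase, was 1.10-fold and 1.41-fold higher. None of the 12 measured relatives of the 10 genes met the rule in either direction. Among these, *Vcan*, the versican of loose connective tissue, had log2 ratios of 0.13 and -0.81. The matrilins *Matn2* and *Matn4*, which are also made outside cartilage and were picked out after their values were seen, had log2 ratios of 0.49 and -0.05 and of -0.32 and -0.78. Of 4 hypertrophy genes, 3 met the rule, with *Col10a1* 7.54-fold and 4.38-fold lower. Genes of some other tissues met the rule as well, where 1.58% of all genes were lower and 4.21% higher by it. Of 6 bone formation genes 4 were lower, with *Ibsp*, which encodes bone sialoprotein, 2.48-fold and 2.13-fold lower, while *Bglap*, which encodes osteocalcin, missed the rule at 1.53-fold and 3.16-fold. Of 5 bone resorption genes 3 were lower, with *Acp5*, the acid phosphatase of osteoclasts, 2.55-fold and 5.54-fold lower. All 8 muscle genes were at least 2-fold higher in Nf1Postn, as were 2 of 6 marrow and blood genes, *Hbb-bs* (11.6-fold and 5.65-fold) and *Hba-a2*, both globins. Of 6 tendon genes 1 was higher and 0 lower. None of 6 periosteal and fibrous genes, 5 joint surface genes and 3 adipose genes with enough UMIs met the rule in either direction.

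Since muscle-rich spots were more frequent in the Nf1Postn callus, the levels in those spots were set apart. In muscle-rich spots of section 1, *Acan* was at 134 CPM (110 to 162) in the control and 153 (134 to 173) in Nf1Postn, *Hapln1* at 23.4 and 26.0, and *Comp* at 902 and 848. In section 2 the control spots of this kind were higher, at 310 CPM for *Acan*, 46.3 for *Hapln1* and 1494 for *Comp*, against 131, 20.7 and 840 in Nf1Postn. Muscle-rich spots thus carried UMIs of these genes in both genotypes, and their part in the genotype difference was not tested beyond leaving them out. With muscle-rich spots left out, the rule was met by 6 of the 10 genes, against 0.358% of all genes. In section 1 the 9 genes were then 3.30-fold (*Comp*) to 28.3-fold (*Ucma*) lower in Nf1Postn. In section 2 they were 1.18-fold (*Comp*) to 9.83-fold (*Ucma*) lower, and *Comp*, *Cnmd* and *Matn1* fell under 2-fold there (1.18-, 1.40- and 1.75-fold).

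**Figure D2:**
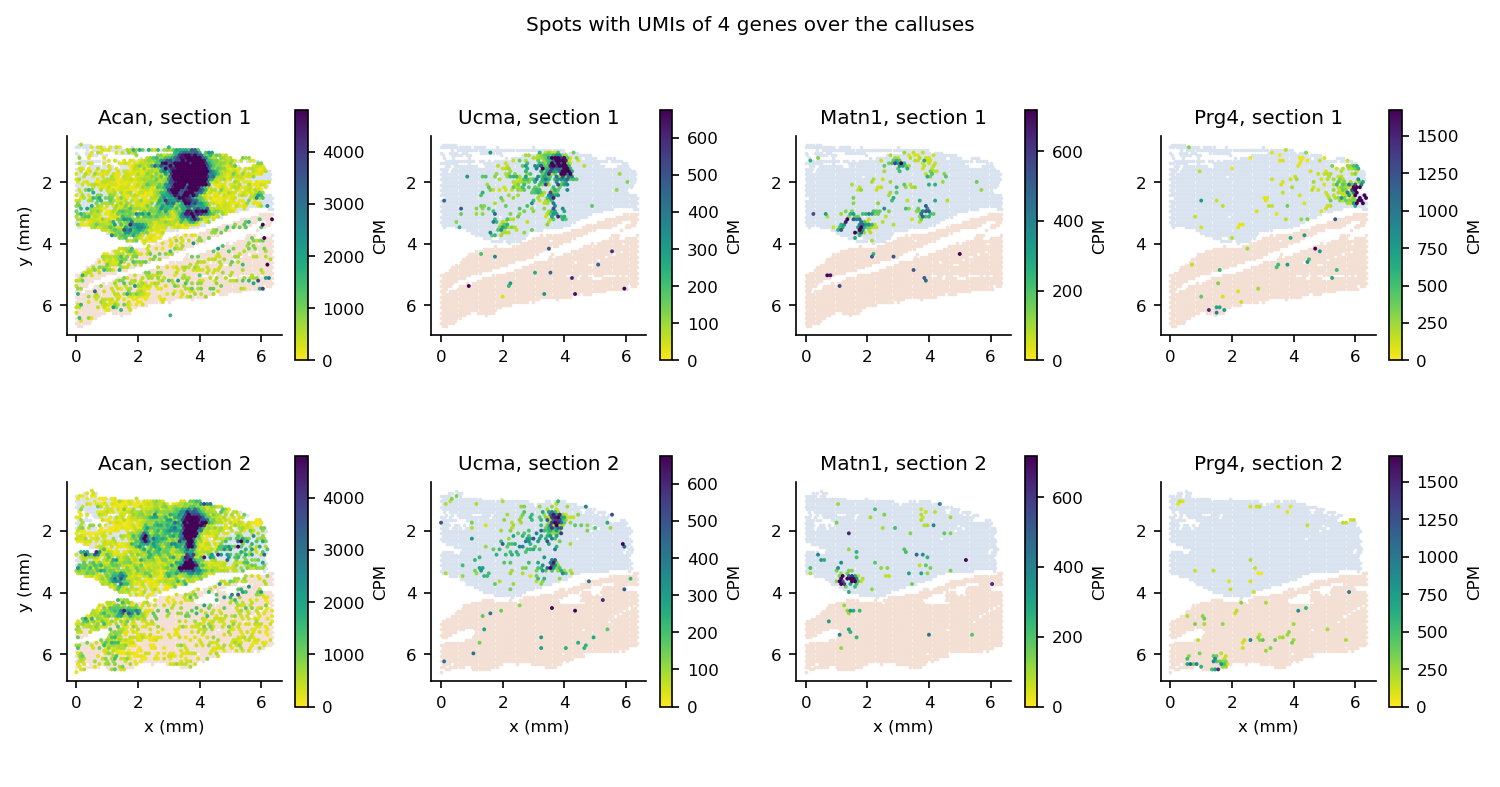
Spots with UMIs of *Acan*, *Ucma*, *Matn1* and *Prg4* (columns) in section 1 and section 2 (rows), placed by x and y on the capture area in mm and colored by CPM, with the color capped at the 95th percentile of the spots that have a UMI. Pale blue spots are control and pale orange spots Nf1Postn tissue without a UMI of the gene, and a single UMI in a shallow Nf1Postn spot gives a high CPM there. *Prg4* gathers at the right edge of section 1 and *Matn1* is dense in a small nodule of the control callus.

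The maps showed cartilage as separate bodies, which were then cut out as touching sets of at least 10 spots with *Col2a1* at or above the 90th percentile of control spots of the section. The threshold was 135974 CPM in section 1 and 58483 CPM in section 2, so bodies and their sizes are not measured alike in both sections. This grouping was chosen after the maps were seen, and the values below are descriptions. The control callus held a large body of 102 spots in section 1 and 120 in section 2. It also held a small nodule in the lower left of the callus, of 17 spots in section 1 and 33 in section 2. Section 1 had a further body of 44 spots beside the large body. Its *Ucma* (196 CPM), *Scrg1* (293), *Matn1* (83.8) and *Col10a1* (1104) lay between the large body and the nodule of that section. Its *Comp* (27107) and *Matn3* (3487) were above both and its *Cnmd* (940) below both. The Nf1Postn callus had no such body in section 1 and an island of 23 spots in section 2, where the threshold was lower.

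*Col2a1* was high in all of them by the rule that drew them, at 209466 and 170691 CPM in the large body, 191516 and 150914 in the nodule and 177066 in the island. Several of the described genes differed between them. *Ucma* was at 470 and 277 CPM in the large body (421 and 258 UMIs), at 126 and 19.2 in the nodule (11 and 3 UMIs) and at 15.1 in the island (2 UMIs). *Scrg1* was at 500 and 363 CPM in the large body, 68.6 and 51.1 in the nodule and 113 in the island. *Acan* was at 6483 and 5345 CPM in the large body, 2023 and 1348 in the nodule and 1749 in the island, and *Clec3a* at 2981 and 2206, 1017 and 920, and 980. For these 4 genes the large body was the highest in both sections, and in section 2 the nodule and the island were closer to each other than either was to the large body.

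*Matn1* ran the other way within the control callus. The nodule had 343 and 364 CPM (30 and 57 UMIs) and the large body 41.3 and 12.9 (37 and 12 UMIs), a difference of 8.31-fold and 28.3-fold whose log2 intervals were 2.31 to 3.79 and 3.91 to 5.86. *Col10a1* was also higher in the nodule, at 1646 and 1303 CPM against 604 and 491. *Comp* had log2 ratios of nodule over large body of 0.21 and -0.12. *Hapln1* (0.14 and -0.73), *Cnmd* (-0.12 and -0.53) and *Matn3* (-0.47 and -1.40) were lower in the nodule of section 2, with intervals clear of 0, and in section 1 only *Matn3* was.

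The Nf1Postn island combined levels of several kinds. *Comp* (27591 CPM) and *Cnmd* (1320 CPM) were above the control bodies of section 2, at 21003 and 19344 CPM for *Comp* and 1101 and 760 CPM for *Cnmd*. *Hapln1* (1071 CPM) and *Matn3* (1644 CPM) lay between the large body and the nodule of section 2. Relative to the large body of section 2, *Acan* was 3.06-fold lower in the island, *Clec3a* 2.25-fold and *Scrg1* 3.21-fold, and *Ucma*, with 2 UMIs, had a log2 ratio of -4.20 (-7.25 to -2.33). Relative to the nodule, those of *Acan* and *Clec3a* were 0.38 (0.10 to 0.65) and 0.09 (-0.26 to 0.44). *Matn1* was at 45.2 CPM with 6 UMIs, 8.05-fold lower than in the nodule and 3.51-fold higher than in the large body (log2 1.81, 0.11 to 3.34). *Col10a1* was at 75.4 CPM with 10 UMIs, 6.52-fold lower than in the large body and 17.3-fold lower than in the nodule. *Ihh*, the signal of prehypertrophic cells, was at 75.4 CPM in the island and 40.8 and 89.4 in the large body and nodule of section 2. *Mmp13*, also on the hypertrophy list, was not low in the island, at 362 CPM (48 UMIs) against 320 and 498. *Pth1r*, a receptor that slows hypertrophy, was at 1161 against 666 and 824.

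The island was 1.48% of the Nf1Postn spots of section 2 and held 56.3% of their *Cnmd* UMIs, 47.8% of *Hapln1*, 47.7% of *Matn3*, 32.4% of *Comp* and 16.4% of *Acan*. Outside it, the Nf1Postn levels of section 2 were 23.2 CPM for *Cnmd*, 26.5 for *Hapln1*, 40.8 for *Matn3*, 1307 for *Comp* and 202 for *Acan*. The whole Nf1Postn callus of section 1, where there was no island, had 28.9, 32.3, 44.5, 1513 and 210 CPM of these genes. With all of these bodies left out of both calluses, 9 of the 10 genes were still at least 2-fold lower in Nf1Postn in both sections, against 1.49% of 11773 genes. Muscle-rich spots were kept, and tissue rich in *Col2a1* remained in the control callus. Control spots high in neither *Col2a1* nor *Col10a1*, by the classes described below, had *Col2a1* at 19735 CPM in section 1 and 9331 in section 2. Nf1Postn spots of this class had 2396 and 2835. Whether the genes differ outside cartilage was therefore not tested.

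**Figure D3:**
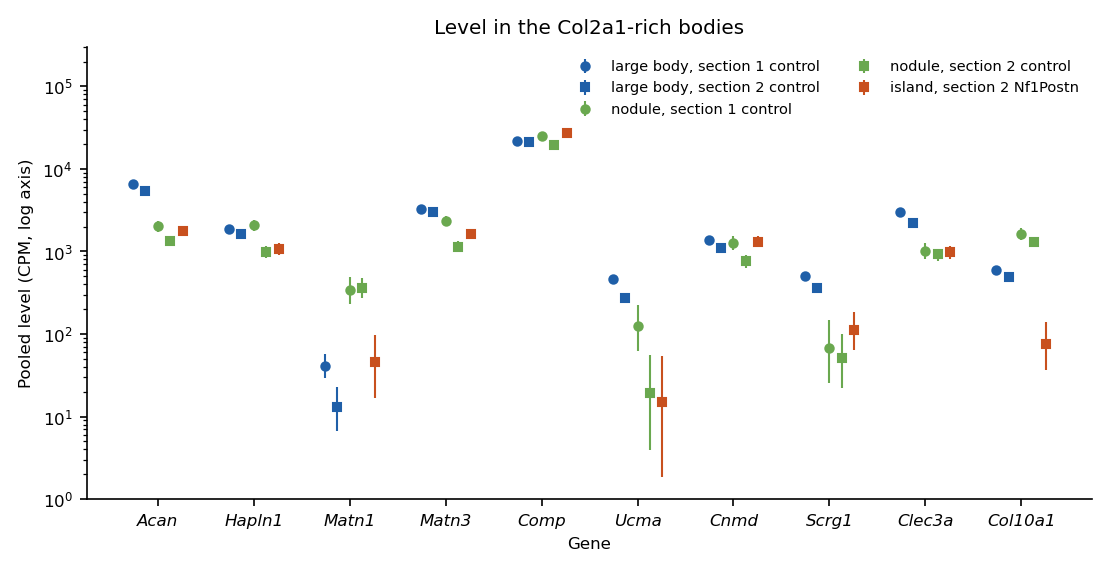
Pooled level (CPM, log axis, exact Poisson 95% intervals) of 9 of the genes and of *Col10a1* in the large *Col2a1*-rich body (blue) and nodule (green) of the control callus and in the island of the Nf1Postn callus (orange), in section 1 (circles) and section 2 (squares). *Matn1* and *Col10a1* are highest in the nodules and *Ucma* and *Scrg1* in the large bodies, while the island has *Comp* at 27591 CPM and *Col10a1* at 75.4. The further control body of section 1 is not shown.

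The next comparison ran along the callus of the section 1 control mouse, where the authors give each spot of the skeletal regions a SpatialTime from 0 to 25, its relative distance from the fracture plane, which uses no expression values. All 9 genes that were lower in Nf1Postn were at least 2-fold higher in the nearest bin (0 to 4, 297 spots) than in the farthest (20 to 25, 200 spots), where 4.32% of 11214 genes were. For *Matn1* the direction turned when spots were thinned to 1000 UMIs, from a log2 ratio of 1.78 to -0.16. Before thinning these bins held 51 and 6 UMIs of it, and after thinning 30 spots of the section 1 control callus had any. The thinned value therefore rests on few UMIs and may be a bound. *Prg4* was higher far away, as 7.76% of genes were.

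The gradients differed in steepness and in form. *Ucma* had the largest ratio, at 196 CPM (181 to 211) in the nearest bin, 67.3 in the next, then 22.0, 12.2 and 7.81 (3.90 to 14.0), or 25.1-fold from end to end. The last bin held 11 UMIs of *Ucma*, so its rank above *Cnmd*, at 21.6-fold (log2 4.44, 4.01 to 4.89), rests on few UMIs. *Cnmd* went from 691 over 359, 114 and 65.6 to 31.9 CPM, and *Scrg1* from 239 over 84.9, 22.4 and 14.6 to 11.4. *Matn3* went from 1510 to 83.1 CPM, *Hapln1* from 797 to 51.8 and *Clec3a* from 1123 to 88.0, and *Clec3a* was no lower in the last bin than in the one before it (76.3, 64.8 to 89.2). *Comp* had a shallow gradient, from 11053 and 9512 CPM in the nearest bins to 2972 in the farthest. *Matn1* peaked in the second bin instead, at 14.6 (10.9 to 19.2), 40 (32.8 to 48.4), 19.1, 14.1 and 4.26 CPM. *Col10a1* was also highest in the second bin, with 204, 747 and 488 CPM in the nearest 3. *Prg4* stayed between 5.45 and 18 CPM up to SpatialTime 19 and was at 109 (92.7 to 128) beyond it.

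**Figure D4:**
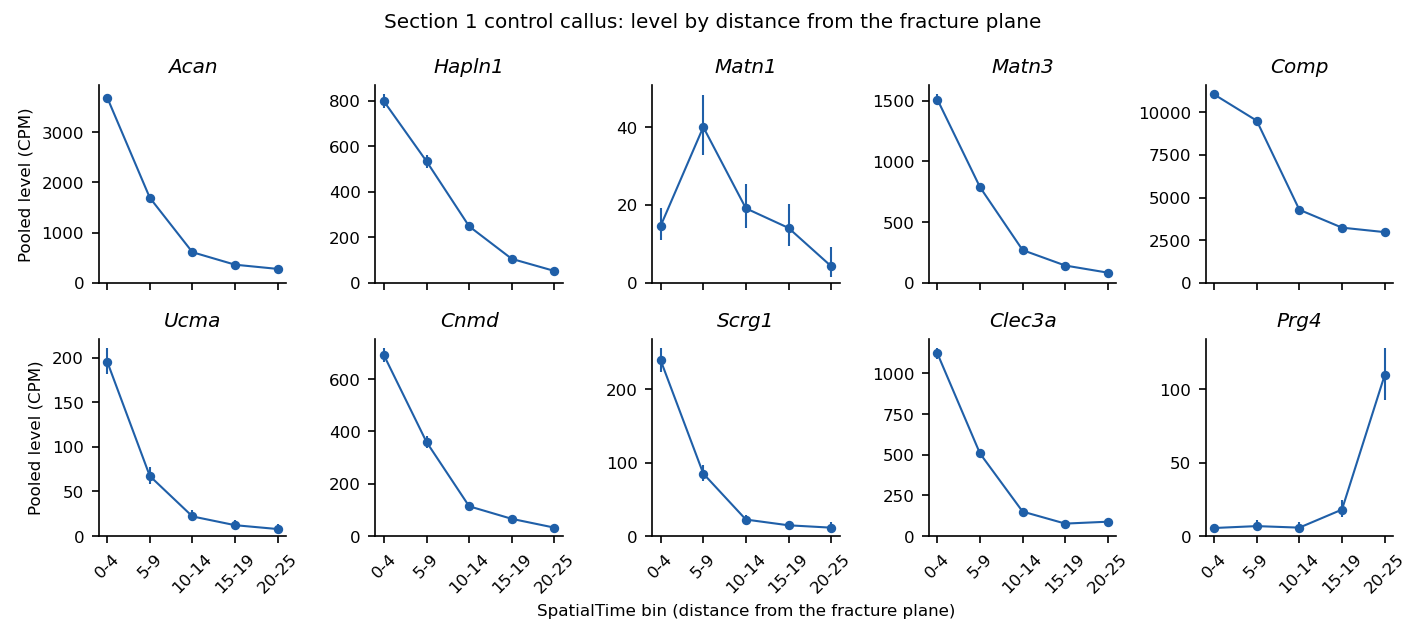
Pooled level (CPM, linear axes from 0, exact Poisson 95% intervals) of each gene in 5 bins of SpatialTime, the relative distance from the fracture plane, in the section 1 control callus. Levels are highest in the nearest bin for 8 genes, *Matn1* is highest in the second bin at 40 CPM, and *Prg4* is highest in the last at 109.

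The bins differed in their share of cartilage, so the gradient was also read without and within the spots that the authors assign to cartilage. Without them all 9 genes were still at least 2-fold higher near the plane, against 4.87% of 11014 genes, with log2 ratios of 4.61 for *Ucma*, 4.30 for *Cnmd*, 4.27 for *Scrg1* and 3.37 for *Acan* against 4.65, 4.44, 4.40 and 3.74 with all spots. *Comp* had 1.29 against 1.90 and *Clec3a* 2.78 against 3.67. The spots left still include the authors' ossifying perichondrium, where *Col2a1* was at 34088 CPM. Leaving out cartilage spots therefore does not separate distance from the share of cartilage. The cartilage spots taken alone were 101 spots in the nearest bin (0 to 4), 111 in the next (5 to 9) and 61 from 10 to 25. Within them *Acan* went from 6166 over 3606 to 1554 CPM, *Clec3a* from 2666 over 1636 to 509, *Scrg1* from 298 over 199 to 46.7 and *Ucma* from 210 over 158 to 32.7. *Matn3* and *Cnmd* were also lower with distance, from 2893 to 1045 and from 874 to 392 CPM. *Hapln1*, at 1401, 1533 and 943 CPM, and *Comp*, at 22322, 21410 and 14592, varied less. *Matn1* was higher with distance, from 18.2 (10.4 to 29.5) over 106 (78.7 to 139) to 177 (125 to 243) CPM, as did *Col10a1*, from 486 over 1883 to 2217. The nodule of section 1 contributes to these spots, so the 2 descriptions are not independent.

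The authors' regions come from clustering the whole transcriptome, with *Acan* as the marker of cartilage, so the place of these genes among them is partly given by how the regions were made. Regions are given for 1344 of the 1700 spots of the section 1 control callus, and the shares below are of the UMIs in those 1344 spots. Most UMIs of 9 of the genes lay in cartilage (273 spots, 13.0% of all UMIs there) or ossifying perichondrium (409 spots, 45.2% of all UMIs). For *Ucma* 28.1% were in cartilage and 61.1% in ossifying perichondrium, for *Scrg1* 31.7% and 57.1%, and for *Cnmd* 30.5% and 57.0%. *Clec3a* leaned to cartilage, with 54.8% and 33.7%, and *Hapln1*, *Matn3* and *Comp* were divided about evenly. *Matn1* had 43.8% in cartilage, 33.8% in ossifying perichondrium and 20.4% in woven bone. *Prg4* had 3.72% in cartilage, 47.1% in ossifying perichondrium, 26.9% in progenitor tissue and 21.9% in woven bone. These were 9, 114, 65 and 53 UMIs, while the whole section 1 control callus held 507. Many UMIs of *Prg4* thus lay in spots without a region, and these shares do not cover them. Relative to depth (CPM) all genes but *Prg4* were highest in cartilage, with 170 CPM against 107 in ossifying perichondrium for *Ucma* and 66.6 against 14.8 for *Matn1*.

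To follow maturation without using these genes, control spots with at least 1000 UMIs were classed by *Col2a1* and *Col10a1*, each high at or above the 90th percentile of its section. Spots high in *Col2a1* alone numbered 114 in section 1 and 92 in section 2, and spots high in both 52 and 78. The *Col2a1* thresholds were those of the bodies, and those of *Col10a1* were 1553 CPM in section 1 and 438 CPM in section 2. Such classes are ranges of spots, not tissues, and their thresholds differ between sections. *Ucma*, *Scrg1* and *Cnmd* were at least 2-fold higher in *Col2a1*-only spots in both sections, 3 of the 9 genes with enough UMIs, where 0.707% of 3396 genes were. *Matn1* was at least 2-fold higher where both were high, where 0.501% of genes were.

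*Ucma* was at 430 CPM (392 to 471) in *Col2a1*-only spots and 111 (70.8 to 165) where both were high in section 1, and at 277 (241 to 315) and 104 (74.5 to 142) in section 2. *Scrg1* was 3.36-fold and 2.38-fold higher in *Col2a1*-only spots and *Cnmd* 2.33-fold and 2.01-fold, so the section 2 value of *Cnmd* sat at the threshold. *Matn1* was at 55.9 CPM (42.8 to 71.8) and 147 (101 to 208) in section 1 and at 17.4 (9.53 to 29.3) and 146 (110 to 190) in section 2, that is 2.64-fold and 8.38-fold higher where *Col10a1* was high too. Spots high in both held 32 and 56 UMIs of *Matn1*. The nodule, drawn from *Col2a1*-high spots, held 30 and 57, so this result is not independent of that body. In spots high in *Col10a1* alone, *Matn1* was at 68.5 CPM in section 1 and 8.37 (4 UMIs) in section 2. *Acan*, *Matn3*, *Comp*, *Hapln1* and *Clec3a* stayed within 2-fold in both sections. The log2 ratio of *Col2a1*-only spots over the others was 0.56 and 0.62 for *Acan*, 0.34 and 0.29 for *Matn3*, -0.12 and -0.15 for *Comp* and -0.27 and 0.00 for *Hapln1*. *Clec3a* had 0.67 in section 1 and 0.02 in section 2. *Matn1* and *Matn3*, both matrilins, therefore had log2 ratios of opposite sign in both sections, with intervals that did not overlap. Of the other listed genes, named here because they met the rule, *Slc26a2*, the sulfate transporter of cartilage cells, was higher in *Col2a1*-only spots, and *Ihh* and *Mmp9*, a protease of resorbing cells, were higher where both were high. Spots high in both were shallower, with medians of 3760.25 and 3816 UMIs against 8367.25 and 7418.75. The number of calls moved with the cutoff, and the pooled log2 ratios moved less. At the 80th percentile 2 genes met the rule in place of 4, and the ratios were 1.53 for *Ucma*, 1.41 for *Scrg1*, 1.06 for *Cnmd* and -1.70 for *Matn1*, against 1.78, 1.52, 1.15 and -1.89 as reported. At the 95th percentile 2 genes met it, with 1.63, 1.15, 1.01 and -1.99. With spots thinned to 1000 UMIs 1 gene met it, with 1.82 for *Ucma*, 1.85 for *Scrg1* and 1.08 for *Cnmd*, and *Matn1* had too few UMIs. In the Nf1Postn callus none of the 1126 spots of this depth in section 1 reached the *Col2a1* threshold, and in section 2 there were 22 *Col2a1*-only spots and 1 high in both.

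**Figure D5:**
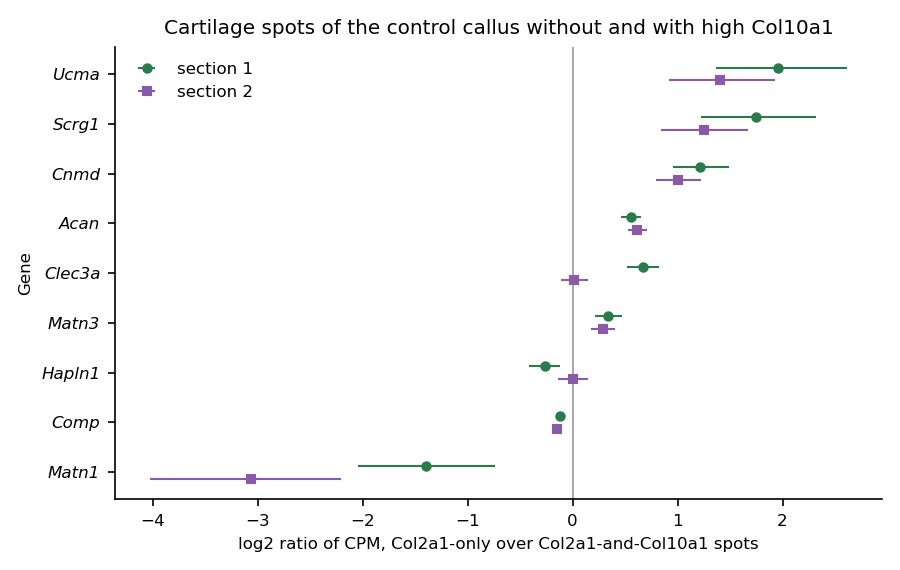
Log2 ratio of pooled CPM in control spots high in *Col2a1* alone over control spots high in both *Col2a1* and *Col10a1*, with exact 95% intervals, for 9 genes in section 1 (green circles) and section 2 (purple squares). *Ucma*, *Scrg1* and *Cnmd* lie at or beyond 1 and *Matn1* lies at -1.40 and -3.07.

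Regions were also drawn from expression with these genes and related cartilage lists left out, which gave 15 clusters. Of these, 2 held most of the signal. Region 9, led by *Rtl3*, *C1qtnf3* and *Stk26*, had 395 control spots, mostly ossifying perichondrium where the authors give a region. Region 8, led by *Aldh1a3*, *Meltf* and *F13a1*, had 415 control spots, mostly cartilage, and the highest *Col10a1* of all regions at 1748 CPM. Together they held 66.5% (*Comp*) to 81.6% (*Scrg1*) of the control UMIs of the 9 genes, with 28.5% of all control UMIs. All of these genes were highest in region 8 or 9. *Ucma* was at 184 CPM in region 9 and 73.0 in region 8, *Scrg1* at 232 and 113, *Acan* at 3576 and 2591 and *Cnmd* at 708 and 458. *Matn1* was at 20.2 and 92.8, *Hapln1* at 796 and 1068 and *Comp* at 11861 and 16247. At least 2-fold higher in region 9 in both sections were *Ucma* and *Scrg1*, 2 of 9 genes against 0.986% of 6894, and higher in region 8 was *Matn1* alone, against 1.39%. Region 8 held 15 of the 17 nodule spots of section 1 and 30 of the 33 of section 2, so the *Matn1* value includes the nodule. The order of these genes between the regions depended on the clustering. At Leiden resolution 0.3, with 11 clusters, the clusters with the most spots of regions 9 and 8 were compared in their place. They had 821 and 526 control spots, so they are not the same regions. *Ucma* and *Scrg1* were lower in the first of them, at log2 ratios of -0.85 and -1.02, and so were *Acan* (-1.47, against 0.46 as reported) and *Cnmd* (-1.12, against 0.63). *Matn1* kept its direction there, at -2.59.

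Of these regions, only region 8 held enough Nf1Postn spots to compare, 27 in section 2, of which 19 lay in the island described above. Against 158 control spots of the region and section, *Acan* was at 1660 (1462 to 1877) and 2454 (2330 to 2582) CPM, *Clec3a* at 817 and 1146, *Ucma* at 19.6 (3 UMIs) and 59.5, and *Matn1* at 39.2 (6 UMIs) and 94.2. *Comp* was higher in Nf1Postn, at 22377 against 14647 CPM, and so was *Cnmd*, at 1013 (860 to 1186) against 458 (406 to 515). *Hapln1*, at 850 (710 to 1009) and 1017 (938 to 1100), and *Scrg1*, at 65.4 and 103, had intervals that overlapped. *Col10a1* was at 91.5 and 1017.

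The likeness of the patterns was described over 208 tiles of control tissue, each of at least 10 spots, as Pearson correlations of log2(CPM + 1) centered per section. Tiles share the library, the depth and the tissue around them, so these values are descriptions. For 9 genes all of the 3 most similar among 7532 genes were cartilage genes, 27 of 30 in all. Cartilage genes here means the 10 described genes and the 16 of the hand-written list of other cartilage genes. *Acan* was most like *Col9a3* (r = 0.92), and *Col2a1* was nearest to *Comp* (0.89), *Hapln1* (0.88), *Clec3a* (0.85) and *Matn3* (0.84). *Cnmd* was most like *Col9a3* (0.80). *Ucma* and *Scrg1* were both most like *Acan* (0.70), and *Sox9*, which encodes the SOX factor that commits cells to cartilage, came next for *Ucma* (0.68). *Matn1* had no close neighbor, with *Col9a2* at 0.51 and the 8 others at 0.27 to 0.48, and its UMIs were the fewest of these 9 genes. *Prg4* was most like *S100a6* (0.45) and had correlations of -0.14 to 0.06 with the 9 others.

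*Prg4* was concentrated in a small area of the section 1 control callus. There, 27 spots with at least 3 UMIs held 355 of its 507 UMIs (70.0%), and the highest had 79. They lay together at the edge of the tissue, at x from 5.20 to 6.25 mm where the tissue ended at 6.35 mm, and y from 1.47 to 2.68 mm. The section 2 control and the section 1 Nf1Postn callus had no spot with 3 UMIs, and the section 2 Nf1Postn callus had 3 such spots. Genes listed as markers of the joint surface were read in the 27 spots against the rest of the section 1 control callus. *Clic5*, a marker of the superficial joint layer, was at 590 and 20.9 CPM, *Creb5*, a factor that drives *Prg4* in joints, was 7.99-fold higher, *Cd55*, a marker of synovial lining, was 3.89-fold higher, *Tspan15* was at 52.5 and 13.1 CPM, and *Erg* was at 109 and 128. Of the 6 tendon genes, *Angptl7* was 9.78-fold, *Cilp2* 4.30-fold and *Thbs4* 2.93-fold higher there, *Fmod* was at 713 and 668, *Scx* at 56.8 and 66.1 and *Mkx* at 13.1 (3 UMIs) and 22.5. *Col2a1* was at 2558 and 40252 CPM, and *Acan* at 354 and 1526, *Comp* at 4180 and 6516 and *Clec3a* at 258 and 450. Because spots were picked by *Prg4*, these are descriptions of where it lay. With the tissue from x = 5.20 mm onward left out, *Prg4* was no longer higher far from the fracture plane and had a log2 ratio of near over far of 2.11. With all spots that have a SpatialTime, the nearest bin held 19 UMIs of it and the farthest 154. The value of 2.11 thus rests on few UMIs, and no interval was computed for it.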

How the data were processed

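The authors hybridized mouse probe pairs to 2 sections of fixed tissue, and the submitters' processing notes name Space Ranger 1.3.0 and mm39. The values the authors deposited are raw UMI tallies of each spot, exported from Partek Flow, and were read like estimated counts, because 10 entries that join several genes under a shared symbol hold means and are not whole. The authors also deposited a genotype for each spot and spot positions. SpatialTime and regions of section 1 control spots came from the authors' supporting values and were joined by barcode, and no expression values were taken from there. The sections are labelled biological replicates 1 and 2 and hold both genotypes, 2711 spot barcodes occur in both because the arrays share a layout, and 5 spots without a genotype were left out.

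UMIs were summed over the spots of a group and given as counts per 1000000 UMIs of the group (CPM). A gene was compared where each section had at least 50 UMIs of it, and called at a ratio of at least 2-fold the same way in both sections (in section 1 alone for distance). Levels have exact Poisson and ratios exact conditional binomial 95% intervals. For a ratio, 0 UMIs were set to 3, so that it is a bound. Depth per group ran from 3462224 to 13562254 UMIs, and spots under 1000 UMIs were 2.65% and 4.67% of control and 16.0% and 7.26% of Nf1Postn spots. The entry that names no gene (6.81e-05% and 3.76e-05% of UMIs) was left out.

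For regions, log2(CPM + 1) of 16839 genes was centered within sections, 20 principal components were kept, and 15 nearest neighbors were clustered by the Leiden method at resolution 0.5. Tiles were 4 array rows by 8 array columns with at least 10 control spots, and genes needed 500 control UMIs to be listed as a neighbor. *Matn1*, with 365, was kept as a described gene but could not be a neighbor of another. Promoter windows were from RefSeq. Scripts ran in Python 3.11.15 with scipy 1.17.1, scikit-learn 1.9.0 and leidenalg 0.10.2, and TMM factors came from edgeR 4.0.16. The ratio code was tested on simulated data. Alternatives were TMM scaling, means over spots, depth and tissue filters, thinning, other bins, cutoffs and clusterings, and each section alone.

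The 10 genes were fixed by the question, and the lists were written by hand. Genes and lists were chosen with earlier results of these data known. Values of listed genes are given in list order, at most 4 a list, unless the text says otherwise, leading genes of a region have the largest CPM ratio of the region over the other spots, and 3 neighbors are given per gene. The *Col2a1*-rich bodies and the Prg4-rich spots were defined after the maps were seen. Columns of the authors' own comparisons were not used.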

Additional observations from a re-analysis of the deposited data

Results flagged for a closer look

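*Prg4* is listed because the log2 ratio of Nf1Postn over control was of opposite sign in the sections, -2.21 in section 1 and 2.64 in section 2. The difference between sections was not tested, since each genotype was treated as 1 mouse. The section 1 control value came mostly from 27 spots at the edge of the tissue, and the section 2 values from 25 UMIs in the control and 77 in the Nf1Postn callus.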

How the results depend on the processing

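Of 250 values of single genes recomputed under an alternative, 126 stayed within the 95% interval as reported and 120 moved outside it. Of the 250, 239 kept their sign and 4 reversed in a called direction. These were the near over far log2 ratio of *Matn1* with spots thinned to 1000 UMIs (-0.16) and that of *Prg4* without the tissue part that held the Prg4-rich spots (2.11, chosen after seeing the data). The others were the log2 ratios of *Ucma* (-0.85) and *Scrg1* (-1.02) at Leiden resolution 0.3, between the larger clusters with the most spots of regions 9 and 8. Those of *Matn1* and *Prg4* rest on few UMIs. Before these changes the far bin held 6 UMIs of *Matn1* and the near bin 19 of *Prg4*. The count of genes lower in Nf1Postn was 9 and ran from 6 (muscle-rich spots left out) to 10, with 10 in section 1 alone and 9 in section 2 alone. The share of all genes lower was 1.58%, 2.84% with TMM scaling, which moved the median of all genes from -0.09 to -0.21, 21.3% for means of log2(CPM + 1) over spots, 0.358% without muscle-rich spots, 6.12% in section 2 alone, and 1.11% with no filter on genes, where 14.7% were higher. The count higher near the fracture plane was 8 to 10, and the share of all genes ran from 3.79% (distance in mm) over 10.9% (thinned) to 12.6% (means of log2), with 4.32% as reported. The number of genes highest in region 8 or 9 was 9. It was 4 at Leiden resolution 1.0, with 23 clusters, where the clusters with the most spots of these regions were taken in their place. The 4 calls between the *Col2a1* classes became 2 at the 80th percentile, 2 at the 95th and 1 with thinned spots, of which the last left 309 genes to compare. The shares of all genes higher in *Col2a1*-only spots were then 0.426%, 1.27% and 2.59%, and the pooled log2 ratios of *Ucma*, *Scrg1*, *Cnmd* and *Matn1* kept their signs (*Matn1* had no value when thinned). Of the 30 nearest genes over tiles 20 to 27 were cartilage genes. Each section holds both genotypes, and ratios were taken within sections. No paired test was made, because how many mice the sections come from is not stated in the sources used here. In the shallower Nf1Postn callus, 10 and 16 UMIs of *Matn1* and 15 and 22 of *Ucma* limit what can be said of these genes.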

Other observations

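The 5 spots that the annotation gives no genotype held 3496.5 UMIs in all, with 1 UMI of *Acan*, 6 of *Comp* and 20 of *Col2a1*. The other described genes were at 0 there, which at this depth allows up to 1055 CPM of each.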
